A study of Homo sapiens with 6 samples.

Results

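The feedback inhibitors of NF-κB described here are genes of the IκB family and of the A20 system, several of which NF-κB itself switches on and most of which encode brakes on the pathway. The 8 genes were NFKBIA, NFKBIB, NFKBIE, NFKBIZ, BCL3, TNFAIP3, TNIP1 and TNIP2, taken by name from the 23002 genes of the deposited expression table. All 8 were found, and all 8 passed the filter on low values that left 11870 genes for testing. The RNA came from U251, a long-established cell line of human glioblastoma. In the sh-NC group (3 samples) the cells carried a lentivirus with a non-targeting control hairpin, and in the sh-TRAF2 group (3 samples) a lentivirus with a short hairpin RNA against TRAF2. Both groups were stable lines kept after puromycin selection, and the labels name no TNF-α treatment for them. The labels do not say which of the TRAF2 hairpins of the study was used, nor whether the replicates of a group came from separate transductions, so p-values measure the spread between these samples.

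In resting cells the cytoplasmic IκB proteins (the products of NFKBIA, NFKBIB and NFKBIE) hold NF-κB dimers in the cytoplasm. A receptor such as the TNF receptor recruits TRAF2 and other adaptors, ubiquitin chains are built there, the IκB kinase complex becomes active, and IκB is phosphorylated and destroyed. NF-κB then enters the nucleus and induces, among other genes, NFKBIA, whose new protein takes NF-κB off DNA, and TNFAIP3, which encodes A20, an enzyme that edits ubiquitin chains on the receptor complex. TNIP1 and TNIP2 encode ubiquitin-binding partners of A20. NFKBIZ and BCL3 encode nuclear IκB relatives that act on NF-κB bound to DNA and can raise as well as lower transcription.

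Values are FPKM (fragments per kilobase of gene, scaled to sequencing depth), so levels may be compared between genes, but only approximately. The annotation that set the gene lengths is not given in the sources used here, and reads of similar genes may be lost or misplaced. The reads recovered from the FPKM steps came to between 33999558 and 36823562 per sample, and each of the 8 genes had at least 1142 reads in every sample. TRAF2 was read first as a check of the labels. It stood at 15.1, 18.4 and 15.3 FPKM in sh-NC and at 3.26, 3.22 and 3.33 FPKM in sh-TRAF2, lower by 79.9%. Of 9 glial and mesenchymal glioma markers, 8 were in the table and 6 had a mean above 1 FPKM, with VIM the highest, whereas the astrocyte markers GFAP and S100B were low. This list summed to between 1648 and 1737 FPKM in sh-NC and between 1997 and 2042 FPKM in sh-TRAF2. Within it VIM (log2 fold change 0.35, from 1242 to 1582 FPKM) and NES (1.12, from 5.35 to 11.7 FPKM) were called higher. GFAP was also called (1.11, from 0.467 to 1.18 FPKM), but it passed the filter of 0.5 FPKM only through its sh-TRAF2 values. Its groups overlapped, with sh-NC replicate 3 at 0.666 and sh-TRAF2 replicate 1 at 0.562 FPKM. The other 4 tested markers of this list were not called. CD44 (-0.07, from 189 to 179 FPKM) and TNC (-0.08, from 200 to 189 FPKM) were lower, and SOX2 (0.12) and SOX9 (0.11) higher. Markers of other cells were each carried by 1 gene above 1 FPKM. The 5 blood and immune markers in the table summed to between 15.6 and 17.9 FPKM over all 6 samples (CD68 the highest, PTPRC near 0). The 4 endothelial markers summed to between 3.33 and 3.40 FPKM in sh-NC and between 3.66 and 4.31 FPKM in sh-TRAF2 (KDR the highest and called higher, PECAM1 near 0). The 6 neuron and oligodendrocyte markers summed to between 24.2 and 27.3 FPKM in sh-NC and between 13.9 and 14.98 FPKM in sh-TRAF2, nearly all of it SYT1, which was called lower (log2 fold change -0.86), while RBFOX3 and MBP were near 0. SNAP25, too low to be tested, went the other way, from 0.297 FPKM in sh-NC to 0.598 FPKM in sh-TRAF2. The part of these shifts in the results was not tested. The comparison was fitted by limma to log2(FPKM + 0.1), and a gene was called at a Benjamini-Hochberg adjusted p under 0.05 over all genes tested. Fold changes are on that log2 scale as sh-TRAF2 over sh-NC, and the median over all genes tested was 0.02.

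The promoters are shown first, because several of these genes are textbook targets of NF-κB through the κB motif. Windows from 250 bases before to 50 after each annotated start were taken from RefSeq (GRCh38.p14) for 7 of the 8 genes, 10 windows in all. The table used has no entry for NFKBIE. The κB motif was searched on both strands by its general consensus, and at least 1 match was found in 7 of the 10 windows and in 6 of the 7 genes. Among all 35116 promoter windows of the same length, 11.3% held a match. By gene, 16.8% of the 9785 tested genes with a window had a match in any of theirs. The 8 genes were chosen as NF-κB feedback genes, so their share of matches is not an independent result. The 4 windows printed here are of NFKBIA and TNFAIP3, which were not called, and of NFKBIB and NFKBIZ, which were called higher. They were picked with these calls known, and the NFKBIB window shown is the one that holds matches. That all 4 hold a match is therefore not a result. The changes of these genes were not tested against each other. Each window is written in the direction of its gene with the κB matches of either strand in capitals. They lie at chr14:35404700-35404999 (minus strand, NFKBIA), chr6:137867009-137867308 (plus, TNFAIP3), chr19:38899719-38900018 (plus, NFKBIB, its second window) and chr3:101827740-101828039 (plus, NFKBIZ, its first window).
NFKBIA: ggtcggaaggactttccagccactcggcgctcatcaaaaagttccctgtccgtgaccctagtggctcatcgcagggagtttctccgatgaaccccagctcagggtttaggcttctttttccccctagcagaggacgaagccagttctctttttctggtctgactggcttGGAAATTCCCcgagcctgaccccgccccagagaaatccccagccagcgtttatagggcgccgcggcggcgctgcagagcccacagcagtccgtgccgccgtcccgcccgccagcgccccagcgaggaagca
TNFAIP3: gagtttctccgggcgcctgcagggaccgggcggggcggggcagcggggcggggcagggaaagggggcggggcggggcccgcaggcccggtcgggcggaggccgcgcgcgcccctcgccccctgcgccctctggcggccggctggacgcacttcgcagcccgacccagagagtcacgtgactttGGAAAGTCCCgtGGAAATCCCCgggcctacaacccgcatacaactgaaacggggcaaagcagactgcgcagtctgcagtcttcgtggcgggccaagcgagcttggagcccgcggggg
NFKBIB: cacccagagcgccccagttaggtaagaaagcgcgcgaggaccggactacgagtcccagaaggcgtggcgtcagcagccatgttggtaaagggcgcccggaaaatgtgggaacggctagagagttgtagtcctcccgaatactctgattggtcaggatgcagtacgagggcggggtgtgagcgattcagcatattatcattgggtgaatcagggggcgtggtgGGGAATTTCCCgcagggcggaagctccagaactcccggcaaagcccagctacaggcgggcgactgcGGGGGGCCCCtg
NFKBIZ: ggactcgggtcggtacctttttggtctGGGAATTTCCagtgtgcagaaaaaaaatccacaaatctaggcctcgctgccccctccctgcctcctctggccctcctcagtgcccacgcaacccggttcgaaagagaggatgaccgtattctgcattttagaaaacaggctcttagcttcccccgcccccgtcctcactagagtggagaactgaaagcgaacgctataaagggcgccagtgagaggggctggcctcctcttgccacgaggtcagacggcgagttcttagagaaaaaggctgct

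The NFKBIA window holds 1 match, starting 81 bases before the start. TNFAIP3 holds a tandem pair, starting 67 and 55 bases before it, and 2.04% of all windows hold 2 or more matches. NFKBIB holds 2 overlapping matches near the start, which share all but 1 of their bases each, and another after it, whereas its first window holds 0. In NFKBIZ the match lies 223 bases before the first start, and another lies 239 bases before the second start. BCL3 has 1 match just after the start and TNIP1 has 1 in its second window. TNIP2 has 0, which says only that these letters are not in this window. Across the tested genes, those with and without a match were called in either direction at these rates. Of the 1648 tested genes with a match, 22.8% rose and 23.2% fell, compared with 23.9% and 20.5% of the 8137 tested genes without one, and the difference was not tested.

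**Figure D1:**
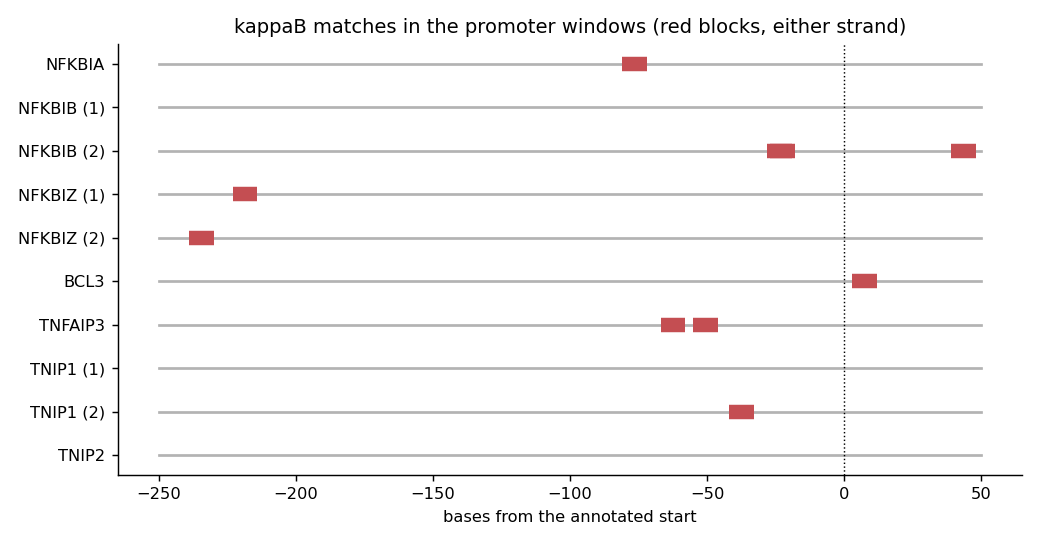
Positions of κB motif matches (red blocks, either strand) in the RefSeq promoter windows of 7 genes, in bases from the annotated start (dotted line); genes with 2 windows are numbered. Matches start at most 81 bases before the start in NFKBIA, TNFAIP3, NFKBIB (second window) and TNIP1 (second window) and farther upstream in NFKBIZ; NFKBIB (second window) and BCL3 have a match after the start, and TNIP2 and the first windows of NFKBIB and TNIP1 have 0.

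After TRAF2 knockdown, 4 of the 8 genes were called higher and 0 were called lower. NFKBIZ, NFKBIB, NFKBIE and TNIP1 rose, and NFKBIA, TNFAIP3, BCL3 and TNIP2 were not called. Across all genes tested 44.6% were called, 23.7% higher and 20.9% lower, so a share of 4 in 8 is close to the background of this comparison and says little about the genes as a group. None of the 8 passed a log2 fold change of 1 in either direction, a threshold that 1.72% of genes passed together with the adjusted p (0.986% higher, 0.733% lower). By unadjusted p under 0.05 and by limma-voom at an adjusted p under 0.05, 0 of the 8 genes were lower, but 2 of them, NFKBIA and TNFAIP3, were called lower under quantile normalization and also without sh-NC replicate 3. The 2 groups did not overlap for the same 4 genes, against 55.5% of all genes tested (29% with sh-TRAF2 higher, 26.5% with it lower). The median log2 fold change of the 8 was 0.12, within a range of -0.12 to 0.48.

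**Figure D2:**
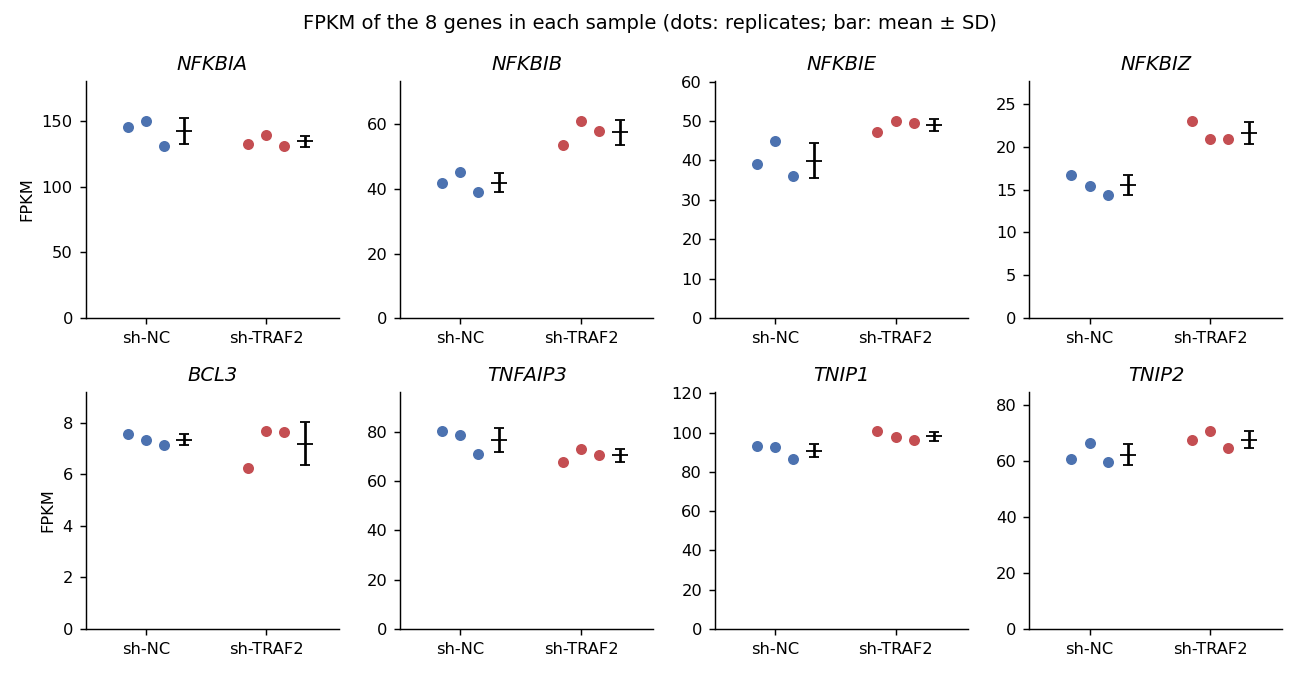
FPKM of each of the 8 genes (y axis from 0) in the 3 sh-NC (blue) and 3 sh-TRAF2 (red) samples, with the mean ± SD beside them. The sh-TRAF2 samples lie above all sh-NC samples for NFKBIB, NFKBIE, NFKBIZ and TNIP1, and the groups overlap for NFKBIA, BCL3, TNFAIP3 and TNIP2.

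The levels of the 8 genes in sh-NC spanned from 142 FPKM for NFKBIA to 7.36 FPKM for BCL3. The order was NFKBIA, TNIP1, TNFAIP3, TNIP2, NFKBIB, NFKBIE, NFKBIZ and BCL3. NFKBIB and NFKBIE were the only neighbours whose sh-NC samples overlapped, and in sh-TRAF2 only TNFAIP3 and TNIP2 overlapped. NFKBIA lay above 96.5% of all genes tested by mean level, TNIP1 above 94.7% and TNFAIP3 above 92.9%, whereas BCL3 lay near the middle at 48.7%.

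Among the cytoplasmic inhibitors, NFKBIA (IκBα, the fast-resynthesised inhibitor) is on chromosome 14 of GRCh38 from 35401511 to 35404749 in the GENCODE annotation. Its FPKM was 145, 150.1 and 131 in sh-NC replicates 1, 2 and 3 and 133, 139 and 131 in sh-TRAF2 replicates 1, 2 and 3. Sample sh-NC replicate 3 was the lowest of the 6, and the groups overlapped. The means were 142 ± 9.93 and 134 ± 4.35 FPKM (SD, n = 3), which gave a log2 fold change of -0.08 ± 0.053 (SE; limma adjusted p = 0.258). The 95% interval of -0.20 to 0.04 runs from 0.871-fold to 1.03-fold. Without sh-NC replicate 3 the log2 fold change was -0.14 with an adjusted p of 0.0349, and under quantile normalization it was -0.14 with 0.0476, so the gene was then called lower.

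NFKBIB encodes IκBβ, an inhibitor with slower turnover, and is on chromosome 19 from 38899700 to 38908893. It measured 41.7, 45.1 and 39.0 FPKM in sh-NC and 53.5, 61.1 and 57.8 FPKM in sh-TRAF2. Every sh-TRAF2 sample lay above every sh-NC sample. The means were 41.9 ± 3.06 and 57.5 ± 3.82 FPKM (SD, n = 3), higher by 37.0%, with a log2 fold change of 0.45 ± 0.065 (SE; limma adjusted p = 8.42e-04). The two-sided exact permutation test over the 20 assignments of samples gave p = 0.1, the smallest possible with 3 samples against 3. The call held under all 15 alternative settings, with log2 fold changes of 0.40 to 0.51. NFKBIB shares 40 exonic bases, 1.72% of its exonic length, with SIRT2 on the other strand, and SIRT2 itself had a log2 fold change of 0.22. The use of strand in counting is not given in the sources used here, and the part of these reads in the NFKBIB value was not tested.

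NFKBIE encodes IκBε, the third classical inhibitor, and is on chromosome 6 from 44258166 to 44265788. Its values of 39.0, 44.9 and 36.0 FPKM in sh-NC compared with 47.2, 50.1 and 49.6 FPKM in sh-TRAF2. The groups were separate, with sh-NC replicate 2 closest to the knockdown samples. NFKBIE rose from 39.9 ± 4.52 to 49.0 ± 1.54 FPKM (SD, n = 3), by 22.6%, with a log2 fold change of 0.30 ± 0.074 (SE; limma adjusted p = 0.0120, exact permutation p = 0.1). Over the 15 alternative settings the log2 fold change was 0.23 to 0.38 and the adjusted p 0.00102 to 0.0432.

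The make-up of the cytoplasmic inhibitor transcripts differed between the groups. Shares and ratios restate the values of the single genes given above and are not separate results. NFKBIA made up 64.3%, 62.5% and 63.6% of the summed FPKM of NFKBIA, NFKBIB and NFKBIE in the sh-NC samples and 56.8%, 55.6% and 55.0% in the sh-TRAF2 samples, with no overlap. The ratio of NFKBIA to NFKBIB went from 3.39 ± 0.0827 to 2.34 ± 0.120 (SD, n = 3). The sum itself overlapped between groups, at 206 to 240.1 FPKM in sh-NC and 233 to 250.5 FPKM in sh-TRAF2. The NF-κB subunit genes RELA, REL, RELB, NFKB1 and NFKB2 summed to 291 ± 9.65 FPKM in sh-NC and 345 ± 8.21 FPKM in sh-TRAF2 (SD, n = 3). The ratio of inhibitor to subunit transcripts was 0.760, 0.813 and 0.737 in sh-NC and 0.692, 0.708 and 0.691 in sh-TRAF2, so that every knockdown sample lay below every control sample. These sums are of transcripts and say nothing of protein, and no p was computed for them. NFKB1 and NFKB2 were counted as subunits only, and NFKB2 alone went from 111 ± 6.85 to 144 ± 4.31 FPKM (SD, n = 3). The ratio with these genes left out or counted otherwise was not computed.

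**Figure D3:**
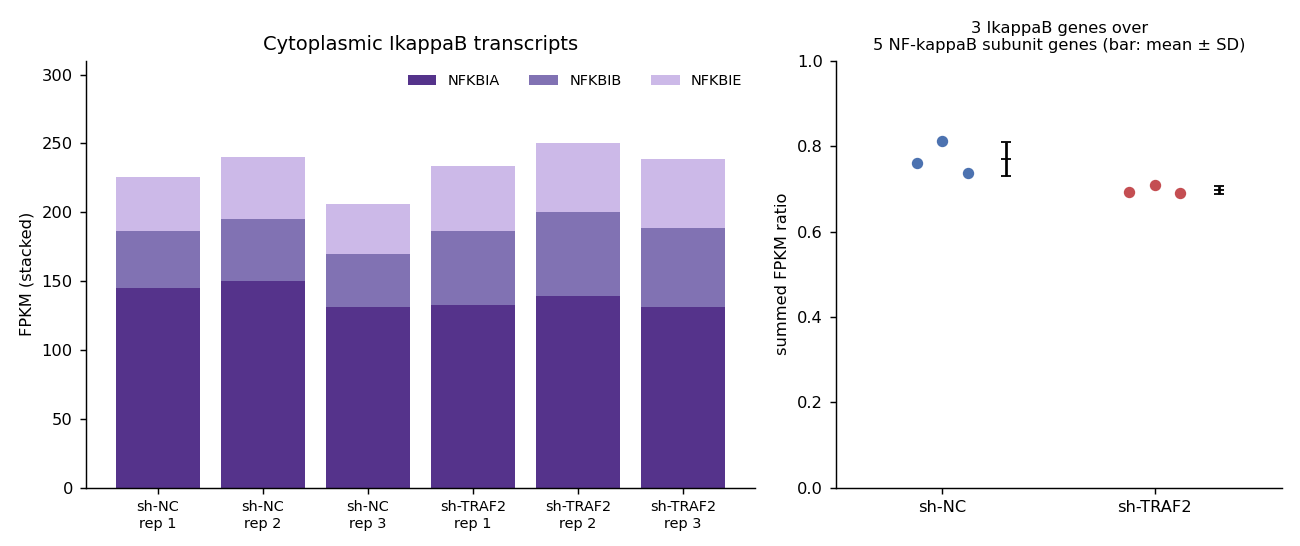
Left, stacked FPKM of NFKBIA, NFKBIB and NFKBIE in each of the 6 samples; right, their sum over the summed FPKM of 5 NF-κB subunit genes, with mean ± SD for each group. The NFKBIA part is a smaller share of the bar in all sh-TRAF2 samples, and the ratio on the right is 0.770 ± 0.0391 in sh-NC against 0.697 ± 0.00979 in sh-TRAF2.

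Of the nuclear IκB genes, NFKBIZ was called and BCL3 was not. NFKBIZ encodes IκBζ, a coactivator that secondary response genes such as IL6 need, and is on chromosome 3 from 101827991 to 101861022. It stood at 16.7, 15.4 and 14.4 FPKM in sh-NC and at 23.0, 20.9 and 20.9 FPKM in sh-TRAF2. All sh-TRAF2 samples were higher than all sh-NC samples. NFKBIZ rose from 15.5 ± 1.15 to 21.6 ± 1.24 FPKM (SD, n = 3), higher by 39.3%, with a log2 fold change of 0.48 ± 0.066 (SE; limma adjusted p = 6.66e-04, exact permutation p = 0.1). A larger absolute log2 fold change was seen in 14.0% of all genes tested. Its order against NFKBIB was not fixed, since NFKBIB had the larger value without sh-NC replicate 2 (0.51 against 0.47) and without sh-TRAF2 replicate 1 (0.50 against 0.43). The call held under all 15 alternative settings, with log2 fold changes of 0.43 to 0.53.

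BCL3, whose product binds NF-κB homodimers in the nucleus, is on chromosome 19 from 44747705 to 44760044. It was measured at 7.57, 7.35 and 7.15 FPKM in sh-NC and at 6.26, 7.68 and 7.67 FPKM in sh-TRAF2. Its lowest and its highest value were both in the sh-TRAF2 group. The log2 fold change was -0.04 ± 0.083 (SE; limma adjusted p = 0.741), with a 95% interval of -0.23 to 0.15. Without sh-TRAF2 replicate 1, the low sample, it was 0.060. The ratio of NFKBIZ to BCL3 was 2.11 ± 0.0966 in sh-NC and 3.04 ± 0.555 in sh-TRAF2 (SD, n = 3), without overlap. That ratio restates the values of the single genes. A microRNA gene, MIR8085, lies within 65 of its exonic bases, 2.00% of them, in GENCODE.

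TNFAIP3, the A20 gene, is on chromosome 6 from 137867188 to 137883312, and 20352 to 24645 reads per sample lay behind its values. It gave 80.3, 78.8 and 71.0 FPKM in sh-NC and 67.9, 72.9 and 70.7 FPKM in sh-TRAF2. Replicates 1 and 2 of sh-NC were above all other samples, and replicate 3 fell within the knockdown range. The means were 76.7 ± 4.99 and 70.5 ± 2.53 FPKM (SD, n = 3), with a log2 fold change of -0.12 ± 0.053 (SE; limma adjusted p = 0.0955, exact permutation p = 0.2). The 95% interval ran from -0.24 to 0.00025. As with NFKBIA, the gene was called lower without sh-NC replicate 3 (log2 fold change -0.18, adjusted p = 0.0171) and under quantile normalization (-0.17, adjusted p = 0.0208). In GENCODE it shares 95 exonic bases with an antisense gene, 1.88% of its exonic length. The ratio of TNFAIP3 to NFKBIA was 0.540 ± 0.0146 in sh-NC and 0.525 ± 0.0138 in sh-TRAF2 (SD, n = 3), with overlapping groups.

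Of the partners of A20, TNIP1 was called and TNIP2 was not. TNIP1, on chromosome 5 from 151029945 to 151093577, was at 92.9, 92.5 and 86.8 FPKM in sh-NC and at 101, 97.9 and 96.0 FPKM in sh-TRAF2. The groups were separate by a small margin. The change was 8.21% with a log2 fold change of 0.11 ± 0.039 (SE; limma adjusted p = 0.0425, exact permutation p = 0.1). The call was lost in 9 of the 15 alternative settings, among them rescaling to a common total (adjusted p = 0.0639) and quantile normalization (adjusted p = 0.222), with every log2 fold change between 0.062 and 0.13.

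TNIP2, on chromosome 4 from 2741648 to 2756376, was at 60.6, 66.5 and 59.5 FPKM in sh-NC and at 67.6, 70.5 and 64.4 FPKM in sh-TRAF2. The highest control sample lay above the lowest knockdown sample. Its log2 fold change of 0.12 ± 0.053 (SE; limma adjusted p = 0.0994, exact permutation p = 0.2) was as large as that of TNIP1, with a 95% interval of -0.0019 to 0.24. Without sh-NC replicate 2 it was 0.17 with an adjusted p of 0.0232. The ratio of TNFAIP3 to TNIP1 was 0.864, 0.852 and 0.818 in sh-NC and 0.674, 0.745 and 0.736 in sh-TRAF2. Relative to its partner, the A20 transcript was thus lower in every knockdown sample, which restates the values of the single genes.

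**Figure D4:**
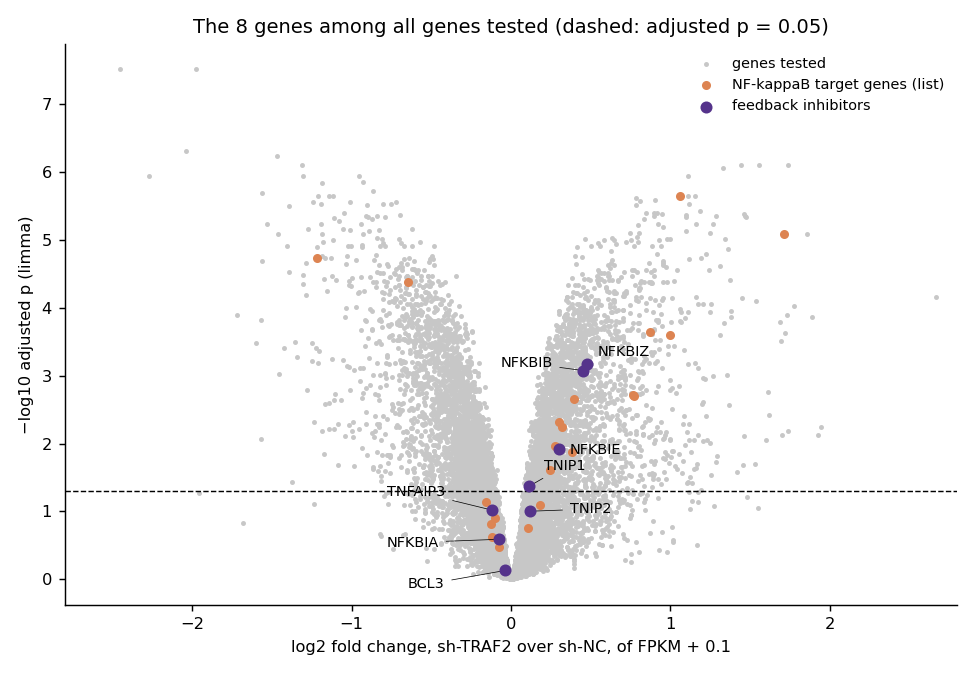
Each point is a gene tested, with the log2 fold change of FPKM + 0.1 on the x axis and −log10 of the limma adjusted p on the y axis; purple points are the 8 feedback inhibitors, orange points the NF-κB target list, and the dashed line is an adjusted p of 0.05. NFKBIB, NFKBIZ, NFKBIE and TNIP1 lie above the line on the right, and all 8 genes lie within 0.48 of 0 on the x axis.

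Other genes of the pathway were read from lists, by counts. The lists were written with earlier results of these data known, so the counts are a description. Of the 16 other brakes of the pathway, 3 were called higher (TANK, PDLIM2 and COMMD1), 1 lower and 12 neither. Over all genes tested, 23.7% were called higher and 20.9% lower. The list held IκB relatives, A20 cofactors, ubiquitin-removing enzymes and other regulators, with a median log2 fold change of 0.03. TANK, an adaptor that binds TRAF proteins, rose from 18.8 ± 0.934 to 26.6 ± 0.972 FPKM (SD, n = 3; log2 fold change 0.50, adjusted p = 1.50e-04 from limma). PDLIM2, which promotes the breakdown of RELA, rose by 0.45 on the log2 scale and SPATA2, the partner of the deubiquitinase CYLD, fell by 0.29. The deubiquitinase genes CYLD, OTULIN and OTUD7B and the A20 cofactor genes TAX1BP1, ITCH and RNF11 were not called, with log2 fold changes of -0.12 to 0.11.

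Of 13 NF-κB subunits and upstream kinases, 4 were called higher and 6 lower, beside 23.7% and 20.9% of all genes tested. The genes called higher were subunits. NFKB2 went from 111 ± 6.85 to 144 ± 4.31 FPKM (SD, n = 3; log2 fold change 0.38, adjusted p = 4.67e-04 from limma), and RELA, RELB and REL were also called higher. NFKB1 was called lower, with a log2 fold change of -0.16. The other genes called lower encode kinases and their adaptors, among them TAB3 with -0.73 and CHUK, the gene of the IκB kinase alpha subunit, with -0.42. In the receptor complex list, 3 of 8 genes were called higher and 2 lower, beside the same background. BIRC2 rose by 0.35, TRADD rose by 0.35 and BIRC3 fell by 0.47 on the log2 scale.

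**Figure D5:**
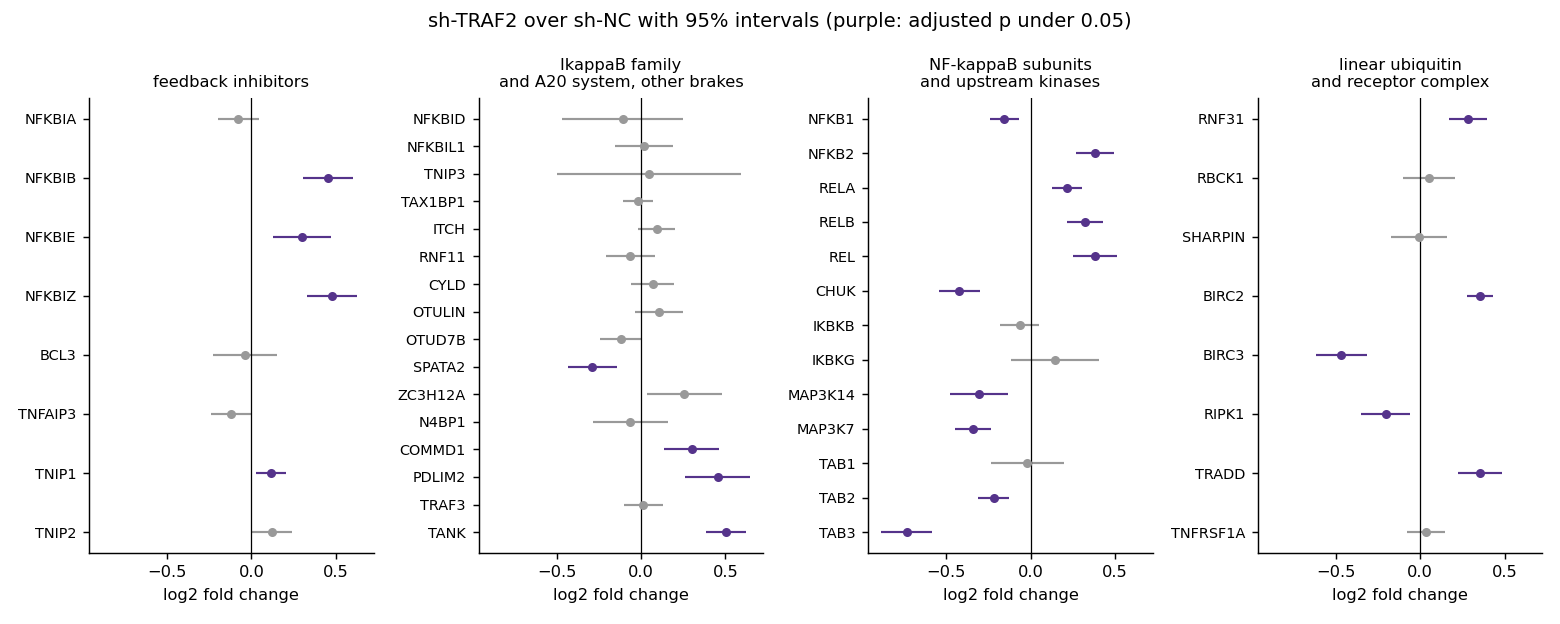
Log2 fold changes (sh-TRAF2 over sh-NC) with 95% intervals for the 8 feedback inhibitors and for 3 lists of pathway genes; purple marks an adjusted p under 0.05. The subunit genes NFKB2, RELA, RELB and REL lie to the right of 0 and TAB3, CHUK and BIRC3 to the left.

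Other targets of NF-κB (cytokines, chemokines, adhesion and survival genes) were read in the same way. Of 24 genes 21 were tested, 12 were called higher and 2 lower, beside 23.7% and 20.9% of all genes tested, with a median log2 fold change of 0.27 beside 0.02 over all genes. This list was written with earlier results of these data known, so its counts and median describe it and are not an independent result. CXCL2 and CXCL3 were counted separately among the genes called higher, though the split of reads between them is uncertain. IL1B, an inflammatory cytokine, went from 9.06, 7.54 and 6.80 FPKM in sh-NC to 26.8, 25.5 and 24.7 FPKM in sh-TRAF2 (log2 fold change 1.71, adjusted p = 8.18e-06 from limma). The chemokine gene CCL20 rose from 22.1, 20.3 and 20.9 FPKM to 44.1, 44.0 and 44.2 FPKM (log2 fold change 1.06), and CCL2 fell from 131 ± 5.13 to 56.6 ± 6.75 FPKM (SD, n = 3; log2 fold change -1.22). The listed targets ran from -1.22 to 1.71, the 8 feedback inhibitors from -0.12 to 0.48 and all genes tested from -2.46 to 2.66. A range widens with the number of genes, so those of 21 and of 8 genes cannot be compared directly. The spread of the lists was not tested. TNF, whose product drives the receptor complex, was itself among the called genes with a log2 fold change of 0.87.

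The genes most like NFKBIA over the 6 samples, by Pearson correlation of log2(FPKM + 0.1), were MZT2B (0.985), ERCC6L2-AS1 (0.983) and SLC39A1 (0.975). For TNFAIP3 they were CC2D1A (0.982), LPCAT2 (0.977) and DOT1L (0.974). With 6 points that share libraries and groups, 80 tested genes correlated above 0.9 with NFKBIA and 89 with TNFAIP3, so the ranking is a description.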

How the data were processed

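RNA of 3 sh-NC and 3 sh-TRAF2 U251 samples was sequenced by OE Biotech. The authors deposited 1 table of FPKM with a column per sample. The submitters' processing notes list HISAT2, HTSeq, R 3.2.0 and DESeq2, whereas genome build, annotation and strand setting are not given in the sources used here. The table holds no column of the authors' own comparisons.

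From the deposited FPKM, log2(FPKM + 0.1) of the 11870 genes averaging 0.5 FPKM or more was fitted with limma 3.58.1 in R 4.3.3 (eBayes with a trend, two-sided, Benjamini-Hochberg adjustment), without a replicate block. The pseudocount shrinks the changes of low genes, and the filter sets which genes the adjustment covers. Depth was read from the FPKM steps by finding, per gene, the least whole read numbers in the same proportion. Every recovered count is thus a minimum, and the 2643 genes with reads in 1 sample were counted as 1 read there. The fit and the recovery were tested on simulated data. Exact permutation tests ran over 20 assignments.

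Sequences came from RefSeq, loci from GENCODE release 29 (GRCh38). The 8 genes and the lists were chosen with earlier results of these data known. Named were the 8 genes, TRAF2, the 3 genes of each pathway list with the smallest adjusted p, and the 3 genes most correlated with NFKBIA and with TNFAIP3. Other genes named, such as NES, TNF, RELA, CYLD or CXCL1, were chosen after their values were seen. Other settings tried were pseudocounts of 1 and 0.01, the filter dropped or raised to 1 FPKM, rescaling to TPM, quantile normalization, a replicate block, eBayes without a trend, limma-voom on recovered reads (mean of at least 10), and each sample left out in turn. Tables and plots were made in Python 3.11.15 (pandas 2.3.3, scipy 1.17.1, numpy 2.4.6, matplotlib 3.10.9).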

Additional observations from a re-analysis of the deposited data

How the results depend on the processing

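Of 120 comparisons of the 8 genes with an alternative, 104 left the call as it was, 9 lost it, 6 gained it and 1 changed sign. NFKBIB, NFKBIE, NFKBIZ and TRAF2 held in all 15 settings. TNIP1 lost its call with no filter (log2 fold change 0.11), without the trend (0.11), rescaled to TPM (0.10) and under quantile normalization (0.062). It also lost it in every fit that left out 1 sample, except the fit without sh-NC replicate 2 (adjusted p = 0.0445). In the fits without 1 sample that lost the call, it ranged from 0.082 to 0.13 (adjusted p 0.0581 to 0.129). Under quantile normalization NFKBIA (-0.14) and TNFAIP3 (-0.17) passed the threshold, so 2 of the 8 genes were called lower. Across the fits without 1 sample, 0 to 2 of the 8 were called lower, both without sh-NC replicate 3, and 3 to 5 higher. NFKBIA ranged from -0.14 to -0.037, TNFAIP3 from -0.18 to -0.086, TNIP2 from 0.087 to 0.17 (called without sh-NC replicate 2, adjusted p = 0.0232) and BCL3 from -0.086 to 0.060, positive without sh-TRAF2 replicate 1. Deviations of same-numbered samples correlated at -0.081, 0.072 and 0.073, and not every sample correlated best with its own number, so the numbers were not taken to pair the samples. With the replicate block TNIP2 was called (0.12, adjusted p = 0.0287), and it moved the genes called from 5297 to 5451. Past a log2 fold change of 1, a pseudocount of 1 called 46 genes higher and 41 lower, which the larger pseudocount brings about by pulling fold changes towards 0, and limma-voom called 239 and 174, against 117 and 87. The limma-voom fit covered 14130 genes, kept by reads, and the main fit 11870, so these counts are not over the same genes. For the other changes the cause was not tested. Each of the 8 genes had at least 1142 reads per sample. With 3 replicates a group, the intervals of NFKBIA, TNFAIP3, TNIP2 and BCL3 in the main fit included 0. The part of depth, of replicate number and of spread between samples in the width of these intervals was not tested.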

Other observations

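The deviations of the 8 genes from their group means were correlated over the 6 samples, pair by pair. Pearson's r ran from -0.40 (NFKBIZ with BCL3) to 0.88, a value reached by NFKBIA with TNFAIP3, NFKBIB with NFKBIE and NFKBIZ with TNIP1. NFKBIA correlated with every other gene of the 8 at 0.29 or more. These points share libraries and scaling, and the values are a description.

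CXCL1, a listed NF-κB target, was at 0 FPKM in all sh-NC samples, whereas its close relatives CXCL2 and CXCL3 were at 158 and 135 FPKM there. CXCL1 was singled out after its values were seen. These genes are similar in sequence, so the split of reads between them is uncertain.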
